A study of Mus musculus with 8 samples.

Results

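10 genes of the PPAR and PGC-1 system were followed in crypts of the mouse small intestine, out of 55880 genes in the deposited table. They were taken by gene symbol: the receptors Ppara, Ppard and Pparg, their partner receptor Rxra, the coactivators Ppargc1a and Ppargc1b, and the fasting-responsive genes Angptl4, Plin2, Creb3l3 and Ucp2. All 10 had 1 record each in the table and passed the filter on low counts. The libraries came from C57BL/6N mice before irradiation, 4 labelled wild type and 4 labelled miR-29ab1-/-, a genotype named for the cluster of the microRNA genes Mir29a and Mir29b-1. The sources used here give no age, feeding state or extent of the deletion. Nor do the labels name a litter, day or batch. The p-values weigh the difference between the groups against the spread of the libraries within them. A litter or batch that went with the group could not be told apart from it. The series title asks whether the microRNAs act on intestinal stem cells by way of fatty acid oxidation, a pathway that PPAR receptors control.

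PPARs are nuclear receptors that bind fatty acids and their derivatives, pair with an RXR on DNA and switch on genes for fatty acid uptake, storage and oxidation. PGC-1 proteins do not bind DNA themselves and raise the activity of PPARs and other factors, mitochondrial programmes included. In the intestine, PPAR alpha and PPAR delta respond to dietary fat and fasting, and PPAR delta has been linked to the function of crypt stem cells on a fat-rich diet.

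Counts per library ranged from 13879472 to 17368666. Mir29a had 0 counts in every library, and Mir29b-1 had 2 to 7 counts in each labelled knockout library and 0 in each wild-type library. That goes against the labels taken at face value, and mature microRNAs are not measured here, so the mutant group is called labelled knockout throughout. Of the marker lists, all 9 crypt stem cell genes and all 9 Paneth cell genes were detected above the filter, as were all 13 markers of villus enterocytes. Labelled knockout replicate 4 stood apart. It held the highest value of the 8 libraries for 26.9% of 14897 genes tested and the lowest for 29.1%, and results are therefore given with and without it.

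The microRNAs named in the genotype pair with messenger RNAs through bases 2 to 8 of the mature strand, shown in capitals (RefSeq, GRCm38.p6, 5′ to 3′). They are printed because the seed, the same in both, gives the letters searched for in the 10 genes.

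mmu-miR-29a-3p: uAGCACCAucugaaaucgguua

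mmu-miR-29b-3p: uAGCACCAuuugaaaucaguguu

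The complement of that seed, TGGTGCT, was searched on the sense strand of the longest annotated 3′ UTR of each gene (GENCODE M21). 4 of the 10 genes held it once each, and none held the longer form TGGTGCTA. Among 12368 tested genes with a 3′ UTR of at least 50 bases, 15.5% held TGGTGCT. The 4 windows are written 5′ to 3′ on the strand of the gene, with the match in capitals.

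Ppard: ccgcccaggtcTGGTGCTgaggatgcagc

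Ppargc1a: ggtacccgaacTGGTGCTttagaaatgcg

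Angptl4: ggatacactcaTGGTGCTgttgtaggtgc

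Ucp2: cggcgtgcagcTGGTGCTtcagcacacaa

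On GRCm38 the Ppard window is chr17:28301308-28301336 (plus strand), with the match beginning at base 1470 of a 1625-base 3′ UTR. The Ppargc1a window is chr5:51454854-51454882 (minus strand), at base 3309 of 3930. The Angptl4 window is chr17:33774976-33775004 (minus strand), at base 394 of 1637, and the Ucp2 window is chr7:100500864-100500892 (plus strand), at base 1525 of 2670. All 4 of these 3′ UTRs were longer than the median of 1171 bases over the genes searched. 1 of 3 complete coding transcripts of Ppard and 1 of 2 of Ppargc1a carried the site, and Angptl4 and Ucp2 each have 1 such transcript. A match is a description of letters and does not show pairing. Ppara, Pparg, Ppargc1b, Rxra, Plin2 and Creb3l3 held no match in the window searched.

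None of the 10 genes passed the test between the groups (0 of 10 at an adjusted p under 0.05, edgeR quasi-likelihood test over all genes). Over all 14897 genes tested, 0.0201% were called. Only Angptl4 had an unadjusted p under 0.05, against 2.7% of all genes (1.87% with a higher level in labelled knockout), and DESeq2 called none of the 10 either, where it called 0.109% of genes. No member had groups that did not overlap, against 1.53% of genes. On the log2 scale 7 of the 10 fold changes were positive and 3 negative, with a median of 0.10, where the median of all tested genes was 0.011. Without labelled knockout replicate 4 the split was 5 and 5 and the median -0.0028. In bulk RNA, fewer cells of a type and less RNA per cell cannot be told apart.

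**Figure D1:**
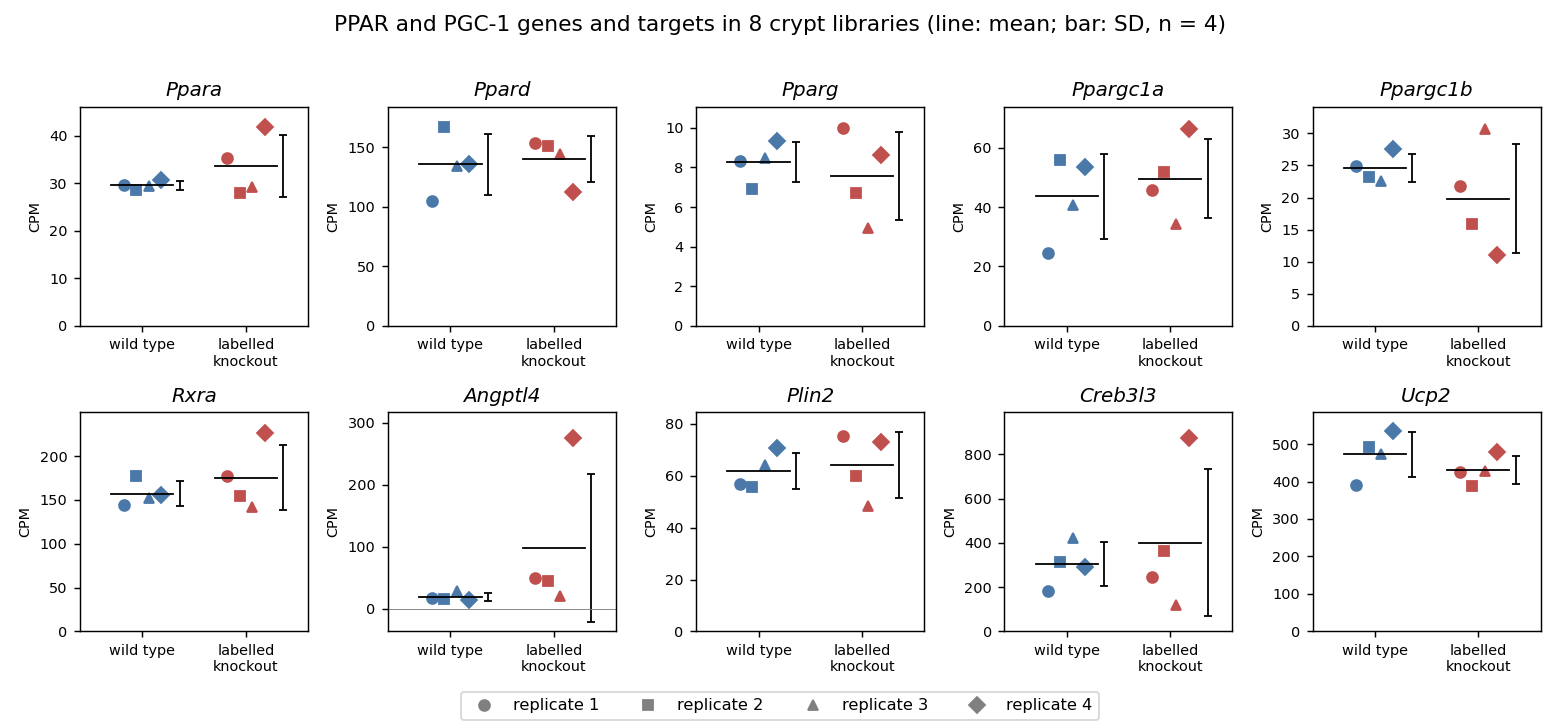
CPM of the 10 genes in each library (counts scaled to the TMM library size, linear axes); each point is 1 library, its shape the replicate number, the horizontal line the group mean and the bar the SD (n = 4). In Angptl4 and Creb3l3 the diamond of labelled knockout replicate 4, at 275 and 876 CPM, stands above the other 7 libraries.

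Level per gene length was compared with the FPKM values (fragments scaled to gene length and library size) of the deposited table. By the median of 8 libraries the order was Creb3l3 at 100.2 FPKM, Ucp2 at 64.0, Rxra at 24.3, Ppard at 18.5, Plin2 at 17.4, Ppara at 7.59, Ppargc1a at 7.31, Angptl4 at 6.90, Ppargc1b at 5.70 and Pparg at 2.81. Some neighbours in this order were separated and others were not. The ranges of Creb3l3 and Ucp2 overlapped, with Creb3l3 the higher in 7 of 8 libraries. Those of Ppargc1b and Pparg did too, with Ppargc1b the higher in 7 of 8. Ucp2 lay above Rxra in all 8 libraries with ranges that did not overlap, and so did Rxra above Ppard and Plin2 above Ppara. Ppard and Plin2 could not be ordered, Ppard being the higher in 3 of 8 libraries. Ppara, Ppargc1a, Angptl4 and Ppargc1b also had overlapping ranges. Angptl4 was above Ppargc1b in 4 of 8 libraries, and reached 77.7 FPKM in labelled knockout replicate 4 alone.

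**Figure D2:**
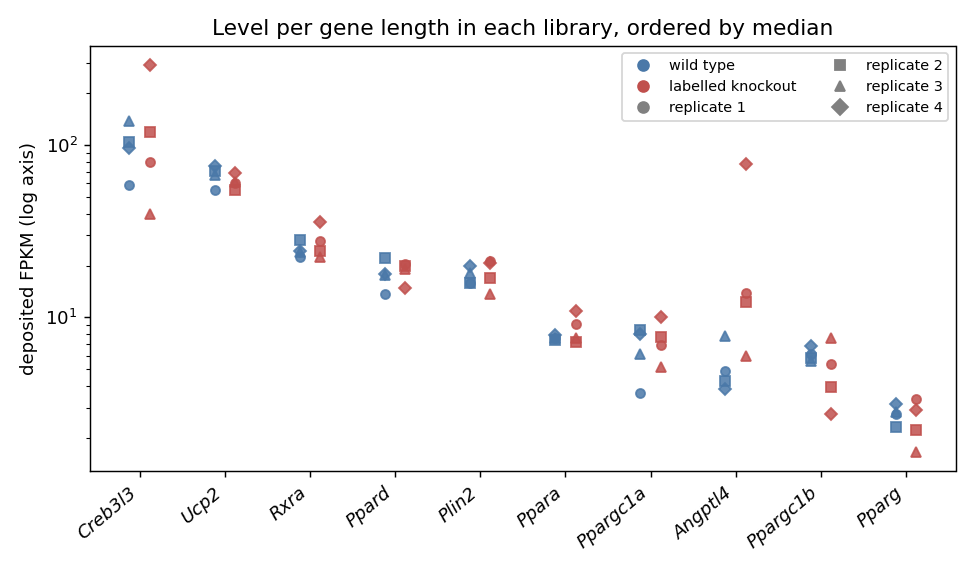
Deposited FPKM of each gene in each library (log axis), ordered by the median of 8 libraries; colours are the groups and shapes the replicate numbers. Creb3l3 and Ucp2 lead, Pparg is lowest by median at 2.81 FPKM, and Angptl4 spans 3.87 to 77.7 FPKM.

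The 3 receptors overlapped between the groups. Ppard (ENSMUSG00000002250, chromosome 17, 28232700 to 28301474, plus strand), the receptor expressed most broadly across tissues, was the most abundant of the 3 PPARs. Its values were 105, 167, 135 and 136 CPM in wild-type replicates 1 to 4 and 154, 151, 144 and 112 CPM in labelled knockout replicates 1 to 4. The groups overlapped, with the lowest wild-type library below the lowest of the other group. The log2 fold change was 0.050 (SE 0.17, 95% interval -0.32 to 0.42, edgeR adjusted p = 0.994), an interval from 0.800-fold to 1.34-fold. It was -0.055 without wild type replicate 1.

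Ppara (ENSMUSG00000022383, chromosome 15, 85734983 to 85802819, plus strand), the receptor that drives fatty acid oxidation in fasting, had 29.7, 28.5, 29.4 and 30.6 CPM in the wild-type libraries. Labelled knockout replicates 1 to 4 were at 35.4, 27.9, 29.2 and 42.0 CPM. The wild-type values lay within 1.07-fold of each other, and their SD on the log2 CPM scale was at percentile 1.28 of all tested genes. The labelled knockout values were wider, with replicate 4 the highest of all 8. The log2 fold change was 0.19 (SE 0.14, interval -0.13 to 0.50, edgeR adjusted p = 0.994), and 0.064 without that library.

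Pparg (ENSMUSG00000000440, chromosome 6, 115360951 to 115490399, plus strand), the receptor of fat cell differentiation, had the fewest counts, 84 to 145 per library. It was at 8.33, 6.90, 8.48 and 9.35 CPM in wild type and 9.99, 6.70, 4.95 and 8.61 CPM in labelled knockout replicates 1 to 4. The highest and the lowest library were both labelled knockout. The log2 fold change of -0.13 (SE 0.23, interval -0.65 to 0.39, edgeR adjusted p = 0.994) was 0.028 without labelled knockout replicate 3. Of 7 adipocyte markers, Lep and Retn had 0 counts in every library and 6 did not pass the filter. The seventh, Cidec, is also on the list of CREB3L3 targets.

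By share of the summed PPAR FPKM, Ppard made up 62.8% ± 5.17 in wild type and 62.2% ± 7.45 in labelled knockout, Ppara 27.3% ± 3.42 and 29.3% ± 5.99, and Pparg 9.93% ± 1.85 and 8.47% ± 2.10 (SD, n = 4 each). For each gene the group means differed by less than the SD within either group. Labelled knockout replicate 4 had the lowest share of Ppard, 51.8%, and the highest of Ppara, 38.0%.

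Rxra (ENSMUSG00000015846, chromosome 2, 27676440 to 27762957, plus strand), the retinoid X receptor with which PPARs pair, had more RNA per length than any PPAR in all 8 libraries. It stood at 144, 178, 152 and 155 CPM in wild type and at 177, 155, 143 and 227 CPM in labelled knockout replicates 1 to 4. Labelled knockout replicate 4 was the one library far above the wild-type range, and replicate 3 was marginally below it. Its fold change on the log2 scale was 0.16 (SE 0.16, interval -0.21 to 0.52, edgeR adjusted p = 0.994), and 0.010 without replicate 4 of the labelled knockout group. Rxrb, a second partner receptor, was at 57.5 ± 5.89 and 61.2 ± 2.44 CPM (wild type and labelled knockout, SD, n = 4 each), and Rxrg had 0 counts in every library.

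**Figure D3:**
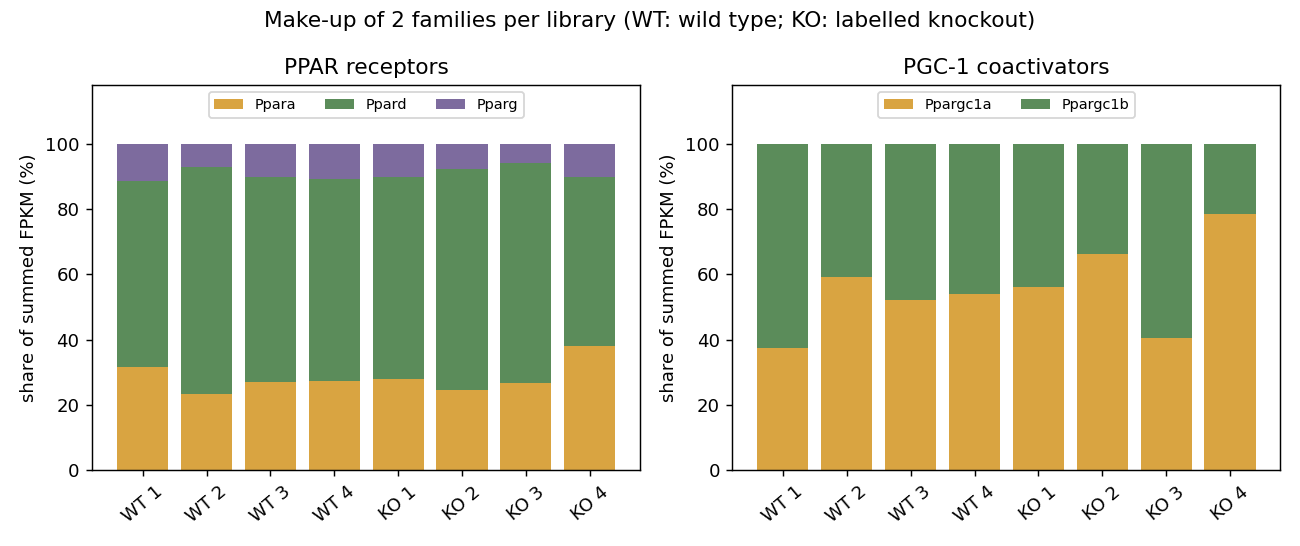
Stacked bars give, for each library, the share of the summed FPKM of the PPAR receptors (left) and of the PGC-1 coactivators (right) that each gene holds (percent, axis from 0). Ppard holds 51.8% to 69.5% of the receptors, and Ppargc1a between 37.5% and 78.5% of the coactivators.

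The PGC-1 coactivators differed more between libraries than between groups. Ppargc1a (ENSMUSG00000029167, chromosome 5, 51454250 to 51567726, minus strand) encodes PGC-1 alpha, a coactivator of mitochondrial biogenesis. Wild-type replicates 1 to 4 had 24.6, 55.9, 40.8 and 53.4 CPM and labelled knockout replicates 1 to 4 had 45.9, 51.7, 34.2 and 66.2 CPM. Wild type replicate 1 was lowest and labelled knockout replicate 4 highest, with the other 6 libraries mixed. On the log2 scale the difference was 0.18 (SE 0.28, interval -0.44 to 0.80, edgeR adjusted p = 0.994). It was 0.0089 when labelled knockout replicate 4 was left out and -0.016 without wild type replicate 1. 3 minor genes annotated on the same strand inside Ppargc1a had 4 to 35 counts each over all libraries, against 5631 for Ppargc1a.

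Ppargc1b (ENSMUSG00000033871, chromosome 18, 61298136 to 61400431, minus strand) encodes PGC-1 beta, the related coactivator. It had 24.9, 23.3, 22.6 and 27.5 CPM in the wild-type libraries and 21.8, 15.9, 30.6 and 10.96 CPM in labelled knockout replicates 1 to 4. The labelled knockout group held both the lowest values and the highest one. 3 of its 4 libraries lay below every wild-type library, and replicate 3 lay above them all. Its log2 fold change was -0.31 (SE 0.27, interval -0.92 to 0.31, edgeR adjusted p = 0.994). Leaving out labelled knockout replicate 3 gave -0.60, and leaving out replicate 4 of that group gave -0.10.

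The ratio of Ppargc1a to Ppargc1b in FPKM was 0.599, 1.46, 1.09 and 1.18 in wild-type replicates 1 to 4. In labelled knockout replicates 1 to 4 it was 1.28, 1.96, 0.676 and 3.66. In 7 libraries the ratio thus lay between 0.599 and 1.96, and labelled knockout replicate 4 lay above them.

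**Figure D4:**
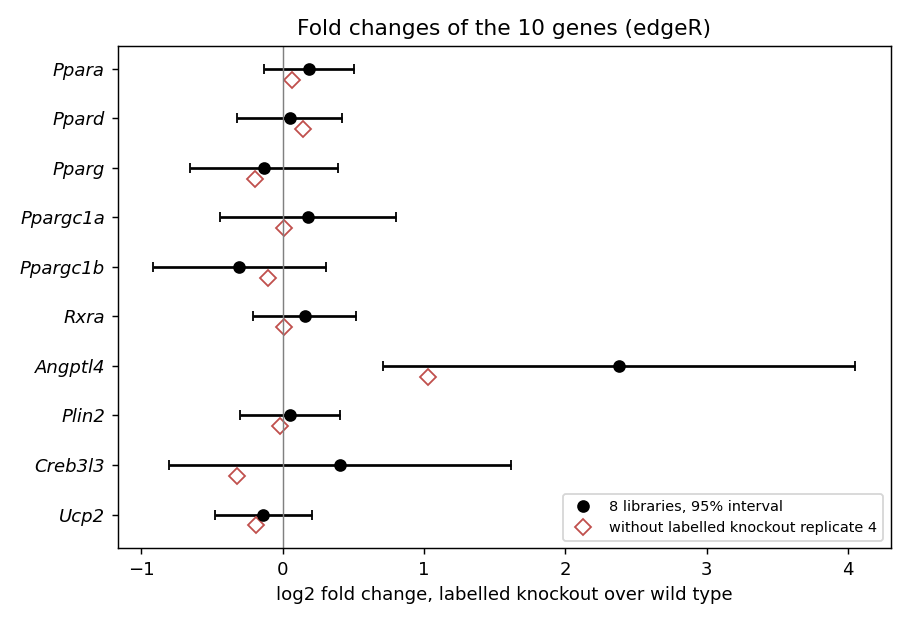
Log2 fold change of each gene, labelled knockout over wild type, from edgeR with 8 libraries (black points, bars the 95% interval) and without labelled knockout replicate 4 (open diamonds, 7 libraries). 9 of the 10 intervals hold 0, and Angptl4 moves from 2.38 to 1.03 when that library is left out.

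Angptl4 (ENSMUSG00000002289, chromosome 17, 33773750 to 33781830, minus strand), which encodes a secreted inhibitor of lipoprotein lipase and is a well-known PPAR target, showed the largest fold change of the 10. Wild-type replicates 1 to 4 had 17.6, 15.3, 28.0 and 13.8 CPM, and labelled knockout replicates 1 to 4 had 49.5, 43.8, 21.3 and 275 CPM. 3 of the 4 labelled knockout libraries exceeded every wild-type library. Labelled knockout replicate 3 lay inside the wild-type range, so the groups overlapped. The group means were 97.5 ± 119 and 18.7 ± 6.42 CPM (labelled knockout and wild type, SD, n = 4 each), and 38.2 ± 14.9 CPM in the labelled knockout group without replicate 4 (n = 3). Its log2 fold change of 2.38 (SE 0.74, interval 0.71 to 4.05) did not pass the test (edgeR adjusted p = 0.994, unadjusted p = 0.0104). Without labelled knockout replicate 4 it was 1.03 (a 2.04-fold ratio in place of 5.21-fold), with an edgeR adjusted p of 1.00. The authors' deposited table gives Angptl4 a log2 fold change of 2.39 and an adjusted p of 0.568.

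Creb3l3 (ENSMUSG00000035041, chromosome 10, 81084324 to 81098874, minus strand), a membrane-bound transcription factor of liver and small intestine that acts with PPAR alpha in fasting and controls apolipoprotein genes, was the most abundant of the 10 per length by median. It was at 181, 315, 422 and 293 CPM in wild type and at 244, 364, 121 and 876 CPM in labelled knockout replicates 1 to 4. The labelled knockout group again held both extremes and spanned 7.26-fold, against 2.34-fold in wild type. Its log2 fold change was 0.41 (SE 0.53, interval -0.80 to 1.61, edgeR adjusted p = 0.994) and turned to -0.32 without labelled knockout replicate 4.

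Plin2 (ENSMUSG00000028494, chromosome 4, 86648386 to 86670060, minus strand), the coat protein of lipid droplets, had 56.9, 55.9, 64.0 and 70.7 CPM in wild type and 75.4, 60.0, 48.2 and 73.1 CPM in labelled knockout replicates 1 to 4. Its log2 fold change was 0.052 (SE 0.16, interval -0.30 to 0.41, edgeR adjusted p = 0.994), and leaving out labelled knockout replicate 1 gave -0.035, leaving out replicate 4 of that group -0.015. Plin2 thus stayed between 48.2 and 75.4 CPM in every library, also where Angptl4 was at 275 CPM. Of its family, Plin3 was the only other perilipin to pass the filter, at 248 ± 52.6 CPM in wild type and 305 ± 150 CPM in labelled knockout (SD, n = 4 each).

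Ucp2 (ENSMUSG00000033685, chromosome 7, 100493337 to 100502020, plus strand), a carrier of the inner mitochondrial membrane, had the highest counts of the 10 after Creb3l3 in labelled knockout replicate 4 and the highest in each of the other 7. Values were 391, 493, 473 and 534 CPM in wild-type replicates 1 to 4 and 425, 389, 428 and 479 CPM in labelled knockout replicates 1 to 4. This was the steadiest gene of the 10 in the labelled knockout group, with a coefficient of variation of 8.52%. The log2 fold change was -0.14 (SE 0.15, interval -0.48 to 0.21, edgeR adjusted p = 0.994), which leaves 0.717-fold to 1.16-fold. The record shares 305 bases with Dnajb13 on the other strand, which had 450 counts over all libraries against 55422 for Ucp2. Ucp1 had 0 counts in every library, and Ucp3 did not pass the filter.

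The 4 genes with a TGGTGCT match in the sequences above had log2 fold changes of 0.050 (Ppard), 0.18 (Ppargc1a), 2.38 (Angptl4) and -0.14 (Ucp2), none of them past the test. Over the 12368 genes searched the median was 0.025 with the match and 0.0042 without it. 3 of the 4 lay above 0 and 1 below.

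Most of the genes were more spread in the labelled knockout group, where the median SD over all tested genes was also larger. 7 of the 10 genes had a larger coefficient of variation in labelled knockout than in wild type, the exceptions being Ppard, Ppargc1a and Ucp2. On the log2 CPM scale the SD in labelled knockout was 1.56 for Angptl4 and 1.19 for Creb3l3, while the median over all tested genes was 0.328 in labelled knockout and 0.229 in wild type. Angptl4 lay above 99.1% of tested genes or level with them in that SD, and Creb3l3 96.97%. In wild type the SDs of these 2 genes were 0.448 and 0.508, at percentiles 79.1 and 83.1. Labelled knockout replicate 4 was the highest of the 8 libraries for 5 of the 10 genes, Ppara, Ppargc1a, Rxra, Angptl4 and Creb3l3, and the lowest for Ppargc1b.

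In that library, several lists of cell markers and response genes also stood at an extreme, where 26.9% of all tested genes were highest and 29.1% lowest. The summed level of the 13 enterocyte markers was 45164 CPM in labelled knockout replicate 4 and 9692 to 22777 CPM in the other 7 libraries, and all 13 were highest there. The 9 stem cell markers summed to 1542 CPM against 2465 to 4243 CPM, with 7 of 9 lowest there, and the 12 cell cycle genes were all lowest there (624 CPM against 984 to 1539 CPM). The 10 interferon response genes were all highest there, at 2266 CPM against 256 to 456 CPM, and 6 of 7 glucocorticoid response genes were too. The 9 Paneth cell markers summed to 34986 to 60616 CPM in labelled knockout replicates 1 to 3 and to 20862 to 27627 CPM in wild type. Labelled knockout replicate 4 was the lowest of all 8, at 19028 CPM, and none of the 9 genes passed the test. Other lists did not stand at an extreme in that library. Of 6 tuft cell markers none was highest or lowest there. Of 7 goblet cell markers 2 were highest and 2 lowest, and of 8 T cell markers 1 and 1. The part of these lists in the values of Angptl4, Creb3l3, Rxra and the other genes was not tested.

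Across the 8 libraries, log2 CPM of Creb3l3 followed the log2 summed enterocyte level with r = 0.95 (rho 0.81), and with r = 0.89 in the 7 libraries without labelled knockout replicate 4. For Ppargc1a these values were 0.87 (rho 0.90) and 0.88, for Rxra 0.87 (rho 0.83) and 0.64, and for Ppargc1b -0.80 (rho -0.48) and -0.46. Angptl4 gave 0.68 (rho 0.05) and 0.024, so its likeness to the enterocyte level rested on that library. The remaining genes gave r over the 8 libraries from -0.058 (Ppard) to 0.61 (Ppara). Of all pairs among the 10 genes, Pparg and Plin2 had the highest r (0.89, rho 0.90, and 0.91 without labelled knockout replicate 4). The lowest r was that of Ppargc1b and Angptl4 (-0.90, rho -0.81, and -0.68 without that library). Other pairs came close, such as Ppara and Angptl4 (0.84, and 0.38 without it) and Ppargc1b and Creb3l3 (-0.86 and -0.66). These are descriptions over 8 points that share a library, its depth and its mix of cells.

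The genes most like Angptl4 in log2 CPM over the 8 libraries, among 11307 protein-coding genes, were Cables1 (r = 0.98, rho 0.88), Gal3st2b (0.98, rho 0.98) and Aqp1, a water channel (0.97, rho 0.98). Without labelled knockout replicates 4 and 1, the libraries farthest from the median of Angptl4, r was 0.90, 0.94 and 0.97. Aqp1 was at 364, 301, 431 and 282 CPM in wild type and at 532, 500, 362 and 824 CPM in labelled knockout replicates 1 to 4. The order of libraries in Aqp1 was thus close to that of Angptl4, with a smaller span. Ppara was most like Trdmt1 (r = 0.98, rho 0.90), Stxbp5 (0.96, rho 0.71) and Tmem63b (0.96, rho 0.90), and these fell to 0.77, 0.39 and 0.74 without the 2 libraries farthest from its median. Plin2 was most like the zinc transporter gene Slc39a5 (r = 0.98, rho 0.98), the nuclear receptor gene Nr1i3 (0.97, rho 0.95) and Aco1 (0.96, rho 0.95), with 0.97, 0.97 and 0.91 on leaving out its 2 farthest libraries. The genes named are the top of longer lists. Over the 8 libraries r was above 0.9 for 141 genes with Angptl4, 32 with Ppara and 24 with Plin2.

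Of 28 listed coregulators and partner receptors, 26 were tested and none passed the threshold, with 16 above 0, 10 below and a median log2 fold change of 0.030 (-0.022 without labelled knockout replicate 4). Esrra, the estrogen-related receptor that works with PGC-1 alpha, was at 303 ± 40.3 CPM in wild type and 345 ± 108 CPM in labelled knockout. Pprc1, the third member of the PGC-1 family, was at 55.7 ± 7.32 and 52.4 ± 11.4 CPM. Of the corepressors, Ncor1 was at 311 ± 23.2 and 332 ± 28.9 CPM and Nrip1 at 89.4 ± 10.5 and 97.2 ± 23.4 CPM (SD, n = 4 each). The smallest p-values of the list belonged to Lpin1, a phosphatidate phosphatase that also acts with PGC-1 alpha (log2 fold change -0.39, SE 0.24), and Prkaa2, a catalytic subunit of AMPK (-0.20, SE 0.18), both with edgeR adjusted p = 0.994.

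Among 38 further PPAR targets, 34 were tested and none passed the threshold. 21 lay above 0 and 13 below, with a median of 0.16, and -0.060 without labelled knockout replicate 4, which was the highest library for 19 of the 34. 2 of the 34 had groups that did not overlap, where 1.53% of all tested genes did not. Pdk4, the kinase that turns off pyruvate dehydrogenase, was at 7.78 to 15.4 CPM in wild type, 22.8 to 81.1 CPM in labelled knockout replicates 1 to 3 and 230 CPM in replicate 4. Its log2 fold change was 3.06 (SE 0.69, edgeR adjusted p = 0.994), and 2.07 without replicate 4. Acsl3, an acyl-CoA synthetase of lipid droplets, ran the other way, at 26.6 to 32.1 CPM in wild type and 19.6 to 25.5 CPM in labelled knockout (log2 fold change -0.38, SE 0.13, edgeR adjusted p = 0.994).

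Cd36, a fatty acid carrier of the cell surface, had 39.7, 42.1, 51.3 and 52.3 CPM in wild type and 97.6, 71.2, 37.5 and 154 CPM in labelled knockout replicates 1 to 4. As in Angptl4, labelled knockout replicates 1, 2 and 4 were above all wild-type libraries and replicate 3 was not. Its log2 fold change was 0.96 (SE 0.36, edgeR adjusted p = 0.994) and 0.57 without replicate 4. Not every classical target shared this order. Cpt1a, the entry enzyme of mitochondrial fatty acid oxidation, was at 179 ± 28.2 CPM in wild type and 178 ± 27.8 CPM in labelled knockout. Fabp1, a fatty acid binding protein, was at 678 ± 313 and 669 ± 232 CPM (SD, n = 4 each). Their labelled knockout replicates 1 to 3 reached at most 195 and 869 CPM, under wild-type maxima of 201 and 1010 CPM. Cyp4a10, an omega-hydroxylase known as a strong PPAR alpha target, was scarce, with 54 counts over the wild-type and 60 over the labelled knockout libraries.

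**Figure D5:**
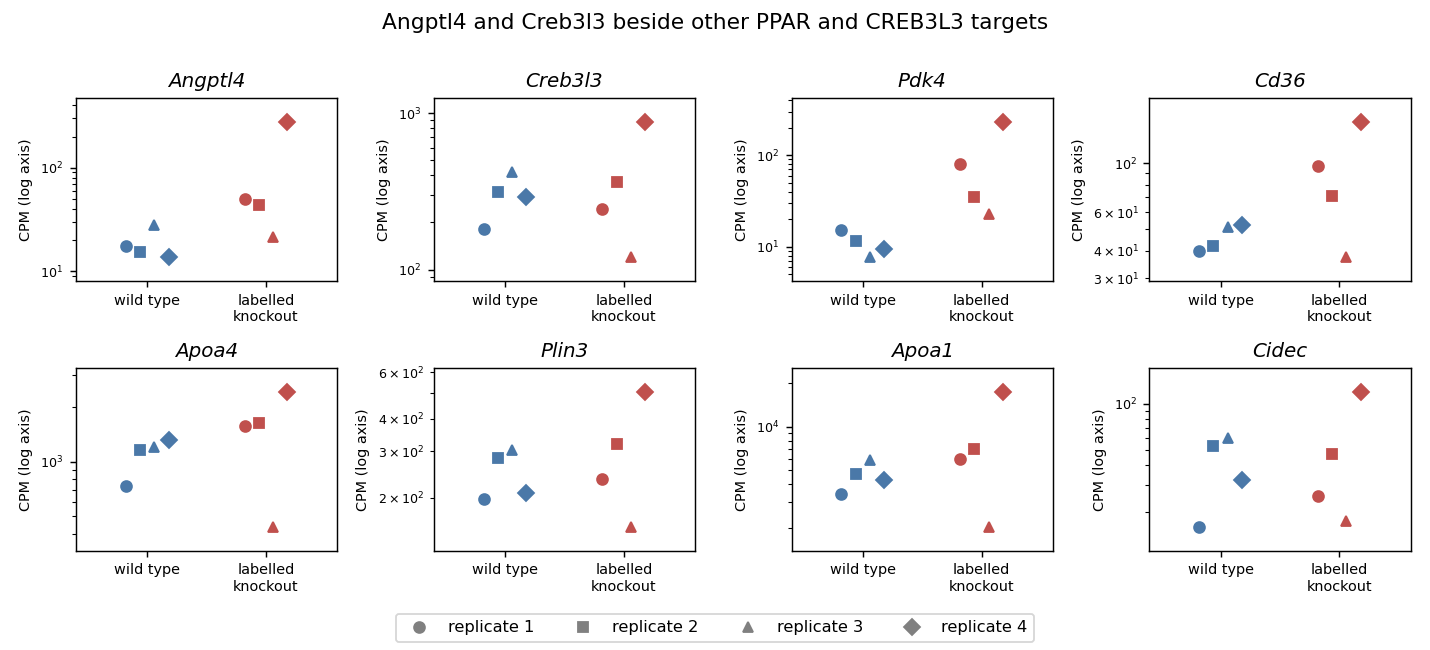
CPM in each library (log axes) of Angptl4 and Creb3l3 beside 5 further targets from the PPAR and CREB3L3 lists and the perilipin Plin3; colours and positions are the groups and shapes the replicate numbers. Labelled knockout replicate 4 is the top library in each of these selected panels, and Pdk4 is the one panel in which the groups do not overlap. Of the PPAR targets tested, that library was the highest for 19 of 34.

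The listed targets of CREB3L3 were tested for 4 of 7 genes. None passed the threshold, and Apoa1, Apoa4, Apoc3 and Cidec were each above 0, with a median of 0.60 and 0.13 without labelled knockout replicate 4. Cidec, a lipid droplet protein gene, turned from 0.37 to -0.42 when that library was left out. Apoa1, the main protein of HDL, was at 4584 ± 1018 CPM in wild type and 8082 ± 6522 CPM in labelled knockout, with 17330 CPM in replicate 4 and 2045 to 6961 CPM in the other 3 libraries. Apoa4, of chylomicrons, was at 1104 ± 252 and 1512 ± 814 CPM, and Apoc3, of triglyceride-rich particles, at 242 ± 45.6 and 407 ± 211 CPM (SD, n = 4 each). In Apoa1 and Apoa4, as in Cd36, labelled knockout replicates 1, 2 and 4 were above all wild-type libraries and replicate 3 was below them. Cidec did not share that order. All 4 tested targets were highest in labelled knockout replicate 4, the library in which Creb3l3 itself and 26.9% of all tested genes were highest. Without that library the log2 fold changes of Apoa1, Apoa4 and Apoc3 were 0.13, 0.13 and 0.54, and that of Creb3l3 was -0.32. Fgf21, a fasting hormone gene, was too low to test, with 4 counts over the wild-type and 37 over the labelled knockout libraries. The mitochondrial carriers Slc25a14 (-0.29, SE 0.20) and Slc25a27 (0.13, SE 0.39), the lipase regulator Angptl8 (0.19, SE 0.34) and the lipase maturation factor Lmf1 (-0.18, SE 0.15) gave log2 fold changes that did not pass the test (edgeR adjusted p = 0.994 each). Lipoprotein lipase (Lpl), the enzyme that ANGPTL4 inhibits, was also too low, with 14 and 29 counts.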

How the data were processed

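Small intestinal crypt RNA was sequenced with a directional kit in 8 libraries, per the labels' protocols. The submitters' processing notes name HISAT2 and DESeq2 with no version. The read counter and its strand setting, and the genome build, were not given in the sources used here. Whole-number counts per gene were deposited and tested. The FPKM values the authors deposited are counts over gene length, scaled per library, as checked on the 10 genes. Group means in the deposited table are a normalized signal and were not tested. From the authors' deposited table, a log2 fold change and an adjusted p-value are quoted for Angptl4. Coordinates of all 10 genes equal those of GENCODE M21 (GRCm38).

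The test was that of edgeR 4.0.16, run in R 4.3.3 (quasi-likelihood test, robust dispersion, TMM, filterByExpr, Benjamini-Hochberg over 14897 genes, threshold 0.05), 4 libraries against 4, without covariates. The SE is the absolute log2 fold change over the square root of F, and intervals use the t quantile. CPM are counts over TMM-scaled library sizes; log2 CPM use a prior count of 2. Alternatives were RLE size factors, DESeq2 1.42.0, no filter, a stricter filter (5 CPM or more in 4 libraries), a replicate block and leaving out each library. The tests were checked on simulated data. Within groups, every pair of libraries differed by more than sampling noise (lowest chi-square over its degrees of freedom 32.3). The members and lists were chosen with earlier results of these data known. Named were the 10 genes, genes fixed by symbol, in each pathway list every gene called, and where none was called the 2 lowest p-values, and for Angptl4, Ppara and Plin2 the 3 protein-coding genes with the highest r among those with a mean log2 CPM above 1; some genes fixed by symbol are not reported here. Depth was 13879472 to 17368666 counts per library; reads carry no molecular identifiers, so depth speaks of counting error only.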

Additional observations from a re-analysis of the deposited data

Results flagged for a closer look

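Angptl4 in labelled knockout replicate 4 was at 275 CPM, where the next library of that group was at 49.5 CPM. That gap is 0.889 of the range of the group, above the 95% critical value of Dixon's test for 4 samples. It was the single such case among 20 groups of 4 checked (10 genes in 2 groups), and chance flags about 1 in 20.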

How the results depend on the processing

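None of the 10 genes passed the threshold under any of the 13 alternatives (smallest adjusted p = 0.566, Angptl4 with DESeq2), and 124 of 130 values kept their direction. The other 6 came from leaving out 1 library: Ppard -0.055 and Ppargc1a -0.016 without wild type replicate 1, Pparg 0.028 without labelled knockout replicate 3, Plin2 -0.035 and -0.015 without labelled knockout replicates 1 and 4, and Creb3l3 -0.32 without labelled knockout replicate 4. Over the 8 fits without 1 library, Ppard ran from -0.055 to 0.17, Pparg from -0.29 to 0.028, Ppargc1a from -0.016 to 0.32, Plin2 from -0.035 to 0.17 and Creb3l3 from -0.32 to 0.71. Angptl4 ran from 1.03 to 2.71 over the alternatives, at an unadjusted edgeR or DESeq2 p under 0.05 in 12 of 13. Over all genes, 3 were called, 2 to 3 without single libraries, 5 with no filter and 21 with DESeq2 (18 higher, 3 lower); the cause was not tested. Same-numbered libraries did not deviate together (correlations of deviations 0.0745, 0.0345, -0.388 and -0.0871). Labelled knockout replicate 2 and wild type replicate 3, which differ in number, gave 0.316. The labels name no pairing, and so few values cannot settle whether the numbers pair libraries. With the replicate block, 2 genes were called and Angptl4 was at 1.67 (edgeR adjusted p = 0.999, unadjusted p = 0.0609). Pparg, with 84 to 145 counts per library, has the widest counting error of the 10.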
